A study of Homo sapiens with 11 samples.

Results

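The MHC class I antigen presentation genes described here are 9 of the 58699 genes in the deposited total RNA table. They were taken by gene symbol with no limit on a measured value, but earlier results of these data were known. They are the heavy chains HLA-B, HLA-C, HLA-E and HLA-F, the light chain B2M, the peptide transporter subunits TAP1 and TAP2, and the immunoproteasome subunits PSMB8 and PSMB9. All 9 were found, and the authors tested all 9 in each of the 5 comparisons used. The cells were HCT116, an established human colorectal cancer line, transfected either with a control siRNA to luciferase (siLuc) or with one to Staufen1 (siStau1), a protein that binds double-stranded RNA. Each transfection was combined with the solvent DMSO or with decitabine (DAC), an inhibitor of DNA methylation, at 500 nM for 5 days, which gave 4 groups of 2 total RNA libraries, named below by siRNA and treatment (siLuc DMSO and so on). Where 4 values are given in a row, the order is DMSO then DAC in siLuc cells, followed by DMSO then DAC in siStau1 cells. Every group therefore carried a transfected siRNA, with no untransfected group among the libraries used, and all came from 1 cell line. The question, per the series title, is the immune reaction to double-stranded RNA of endogenous retroviruses that follows the loss of DNA methylation.

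MHC class I molecules show fragments of a cell's own proteins to CD8+ T cells. Proteasomes cut the proteins, and in the immunoproteasome PSMB8 and PSMB9 replace the catalytic subunits PSMB5 and PSMB6. The TAP1 and TAP2 heterodimer carries the peptides into the endoplasmic reticulum, where they are loaded on a heavy chain paired with B2M. Interferons induce these genes through interferon response elements, and the class I transactivator NLRC5 acts on an enhancer of X and Y boxes in the promoters of the heavy chains, B2M and several partners. Lower levels of these genes in colorectal tumours are a known route of escape from T cells.

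Promoter sequences from RefSeq (GRCh38.p14, 250 bases before to 50 after each transcript start) were found for 8 of the 9 genes, with 2 starts each for TAP1 and PSMB8; HLA-E was not matched. Searched on both strands, the motifs were GAAA and GAAA with any 2 bases between (the core of an interferon-stimulated response element, ISRE), TTCNNNGAA (a STAT site, GAS), GGG and TTCCC with any 2 bases between (NF-kB-like), TGACGC (X2-like) and ATTGG (Y box). Of all 35116 promoters, 3.57% hold the first, 7.66% the second, 2.17% the third, 9.14% the fourth and 34.6% the fifth. The 5 promoters below show the range of arrangements among the genes whose values follow, each 5′ to 3′ on the gene's strand, with every match in capitals.
HLA-B (chr6:31357130-31357429, minus strand): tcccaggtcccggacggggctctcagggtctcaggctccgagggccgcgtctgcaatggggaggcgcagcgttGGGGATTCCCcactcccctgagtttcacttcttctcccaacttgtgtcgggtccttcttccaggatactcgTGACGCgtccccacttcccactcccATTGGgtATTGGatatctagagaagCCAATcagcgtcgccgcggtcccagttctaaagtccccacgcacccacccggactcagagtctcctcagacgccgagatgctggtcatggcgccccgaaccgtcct
B2M (chr15:44711267-44711566, plus strand): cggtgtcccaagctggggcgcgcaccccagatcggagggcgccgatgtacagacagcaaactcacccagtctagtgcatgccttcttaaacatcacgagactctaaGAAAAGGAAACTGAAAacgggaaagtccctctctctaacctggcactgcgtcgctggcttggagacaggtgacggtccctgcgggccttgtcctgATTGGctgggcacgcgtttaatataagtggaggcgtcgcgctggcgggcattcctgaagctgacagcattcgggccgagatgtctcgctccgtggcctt
TAP1 (chr6:32853655-32853954, minus strand): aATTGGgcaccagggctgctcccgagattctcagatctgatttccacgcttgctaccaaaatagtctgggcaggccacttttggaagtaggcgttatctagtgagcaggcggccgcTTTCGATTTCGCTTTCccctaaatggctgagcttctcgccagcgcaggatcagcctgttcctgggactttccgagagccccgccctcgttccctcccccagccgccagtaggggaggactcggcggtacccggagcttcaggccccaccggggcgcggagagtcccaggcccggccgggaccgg
TAP2 (chr6:32838690-32838989, minus strand): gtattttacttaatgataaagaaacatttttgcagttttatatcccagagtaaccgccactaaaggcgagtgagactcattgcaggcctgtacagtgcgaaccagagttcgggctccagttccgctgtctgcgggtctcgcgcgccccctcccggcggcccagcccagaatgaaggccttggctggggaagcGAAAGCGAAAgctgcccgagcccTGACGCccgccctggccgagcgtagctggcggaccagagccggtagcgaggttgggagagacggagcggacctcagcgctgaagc
PSMB8, second start (chr6:32843998-32844297, minus strand): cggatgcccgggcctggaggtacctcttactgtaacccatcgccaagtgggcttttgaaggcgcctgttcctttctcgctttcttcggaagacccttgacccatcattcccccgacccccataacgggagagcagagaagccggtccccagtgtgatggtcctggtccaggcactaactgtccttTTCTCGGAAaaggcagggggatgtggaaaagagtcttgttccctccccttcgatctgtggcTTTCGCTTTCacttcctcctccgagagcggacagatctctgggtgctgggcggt

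HLA-B carried the NF-kB-like letters 177 bases before its start, the X2-like letters at 106 bases, and 3 Y boxes at 81, 74 and 56 bases. HLA-C had the X2-like letters at 105 bases and 4 Y boxes, with no match to the ISRE core letters in the window. Of the 3 heavy chain genes with a promoter here, HLA-F alone had a match to the ISRE core letters. It lay 156 bases before the start on the minus strand of the promoter. In B2M and in TAP1 the capitals mark a pair of overlapping ISRE cores, at 144 and 138 bases in B2M and at 134 and 128 bases in TAP1. TAP2 held an ISRE core at 58 bases and the X2-like letters at 35 bases, and these do not overlap. At the second start of PSMB8 an ISRE core spans the start itself and GAS letters lie 65 bases before it, while the promoter of its first start held none of the motifs. PSMB9 held 1 Y box match, at the same bases as the Y box match of the first TAP1 start, and no ISRE core or GAS letters in its window. The TAP1 and PSMB9 starts are 488 bases apart and point away from each other. The pair of ISRE cores of TAP1 lies between these starts, outside the window searched for PSMB9. CG, the pair of bases that DNA methylation marks, was counted too: HLA-B, B2M and the first start of TAP1 have 22 CG each, TAP2 24 and PSMB9 26, against a median of 14 over all promoters. HLA-C has 19, HLA-F 17, and PSMB8 17 at its first start and 15 at its second. The lowest count was 11, at the second TAP1 start. Every one of these counts lies between the quartiles over all promoters, 4 and 28. A match is a run of letters only, and methylation and binding were not measured in the data used here. Sites that depart from the exact letters were not searched, so the lack of a match does not show that a site is absent.

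STAU1, the targeted gene, had 35.5 FPKM (fragments per unit of transcript length and of sequencing depth) with DMSO and 33.7 with DAC in siLuc cells, and 29.98 and 27.1 in siStau1 cells. Neither knockdown difference was called in the authors' deposited table (q = 0.767 in DMSO and 0.685 in DAC), so the mRNA gives little check of the siStau1 labels, which are used as given. The table gives 1 FPKM value per gene and group, with no value per library, so no SD, replicate check or test was possible here, and depth is unknown. A gene is called where the authors' q-value, adjusted over all 102180 tests of the table, is under 0.05. Whether the 2 libraries of a group came from separate cultures is not given in the sources used here, so the authors' p-values may measure technical spread only. Log2 ratios below are of FPKM + 0.1 and carry no error. They followed the GC content of transcripts across the table. For single members, the ratios of comparisons that change 1 factor are therefore also given after GC centring. Centring subtracts the median of the protein-coding genes in the same 1 of 20 GC bins. In bulk RNA, fewer cells that express a gene and less RNA per cell cannot be told apart.

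All 9 genes were detected in all 4 groups, and their levels spanned from 0.519 to 1442 FPKM. In siLuc DMSO the order of level per length was B2M, HLA-B, HLA-C, HLA-E, TAP2, PSMB9, TAP1, HLA-F and PSMB8. B2M lay above 99.7% of protein-coding genes there, HLA-B above 98.9% and HLA-F above 80.6%, while PSMB8 lay above 42.2%. With DAC, HLA-B took the first place from B2M in siLuc cells, and B2M was first in the other 3 groups. No spread between libraries is given, so neighbours in this order, such as TAP2 and PSMB9, are not shown to differ.

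**Figure D1:**
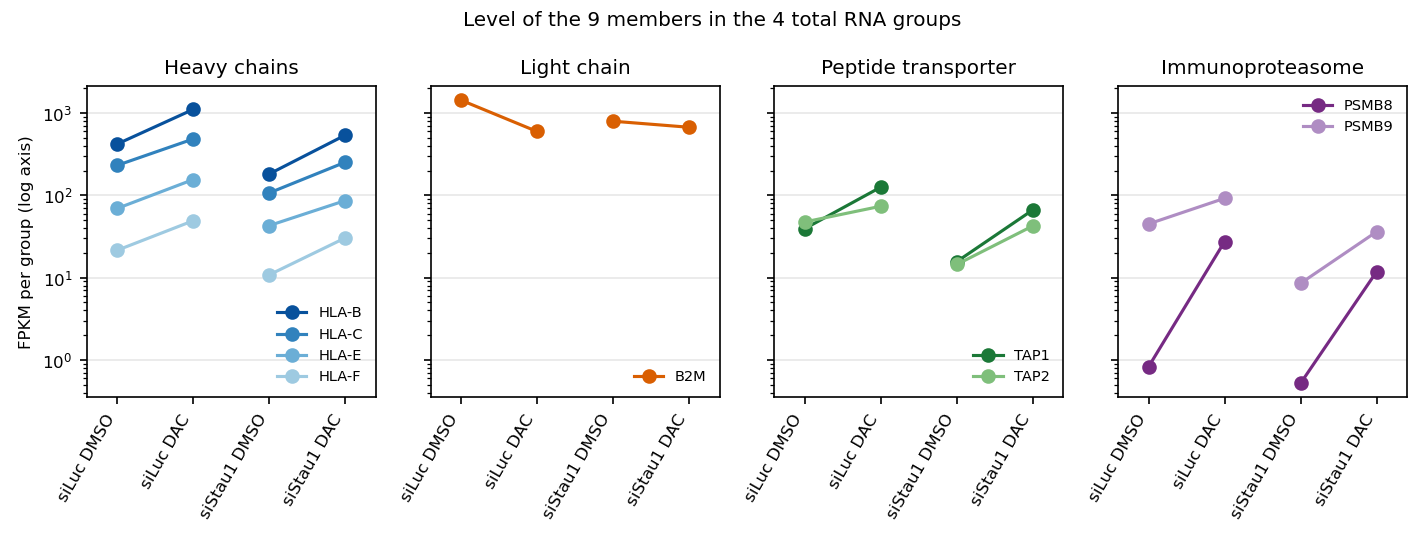
FPKM of the 9 genes (log axis) in the 4 total RNA groups, 1 value per gene and group with no error available, and lines joining DMSO to DAC within each siRNA. Heavy chains, transporter and immunoproteasome genes are higher with DAC in both arms, while B2M goes from 1442 to 599 in siLuc and from 799.6 to 675 in siStau1.

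With DAC in siLuc cells, TAP1, HLA-E and PSMB8 rose and B2M fell by the authors' calls. These are 3 of 9 higher, against 8.71% of the 17504 genes tested, and 1 of 9 lower, against 4.78%, or 4 of 9 in both directions against 13.5%. The other 5 genes had higher values with DAC that were not called. The median log2 ratio of the 9 was 1.17, and 0.23 over all genes tested. At an unadjusted p under 0.05 in the authors' deposited table, 6 of the 9 passed, against 28.9% of genes tested. With the limit on q at 0.01, HLA-E and TAP1 were left, against 7.97%, and at 0.10 the same 4 genes were called, against 17.7%.

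With DAC in siStau1 cells, TAP1 and HLA-E rose again by the authors' calls, 2 of 9 against 4.56% of 16979 genes tested, and no member was called lower, against 2.89% (7.46% in both directions). The median log2 ratio was 1.55, and 0.11 over all genes tested. All but B2M had an unadjusted p under 0.05 in the authors' deposited table, 8 of 9 against 19.0% of genes tested. B2M did not, with a q-value of 0.816. TAP1 alone passed a limit on q of 0.01, against 3.93% of genes tested, and at 0.10 HLA-C and PSMB8 joined TAP1 and HLA-E, against 10.3%.

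Knockdown without DAC gave lower values for all 9 genes, of which 1, TAP1, was called lower, against 0.466% of 15893 genes tested (0.799% in both directions). The median log2 ratio of the 9 was −1.11, and −0.02 over all genes tested. Unadjusted p-values in the authors' deposited table were under 0.05 for 6 of the 9 genes (HLA-C, HLA-E, B2M, TAP1, TAP2 and PSMB9), against 4.30% of genes tested. The TAP1 call rests on the adjustment over all comparisons: its q-value is 0.0201 as deposited and 0.203 when the authors' p-values are adjusted within this comparison alone, which leaves 0.208% of genes called. At a limit on q of 0.01 no member passed in the authors' deposited table, against 0.346% of genes tested, and at 0.10 TAP1 and PSMB9 did, against 1.42%.

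Knockdown in DAC-treated cells gave lower values for 8 of 9 genes, with B2M slightly higher. The authors' Cuffdiff test called none of them, against 0.904% of 17263 genes tested, and at an unadjusted p under 0.05 HLA-C, HLA-E and TAP1 passed, 3 of 9 against 6.95%. At a limit on q of 0.10 HLA-E and TAP1 passed, against 1.93% of genes tested, and at 0.01 none did, against 0.197%. The median log2 ratio was −0.92, beside −0.14 over all genes tested. The DAC comparisons and the knockdown comparisons share groups in pairs (siLuc DMSO stands in the first DAC and the first knockdown comparison), so they are not separate evidence.

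siStau1 DAC cells set against siLuc DMSO cells, which differ in both factors, had higher values for 6 genes and lower for 3, with a median log2 ratio of 0.32 and 0.05 over all genes tested. No member was called by the authors' Cuffdiff test, against 4.98% of 16909 genes tested, and B2M, TAP1 and PSMB8 had an unadjusted p under 0.05, 3 of 9 against 13.6%. B2M was the 1 gene under a q of 0.10, against 6.93% of genes tested, and none was under 0.01, against 3.04%. The largest values were 3.69 for PSMB8 (q = 0.101 in the authors' deposited table) and −1.09 for B2M (q = 0.0507).

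Among the heavy chains, which bind the peptide and meet the T cell receptor, HLA-E was the gene called with DAC. HLA-E (ENSG00000204592.8, chromosome 6, 30489467 to 30494205, plus strand, GRCh38), a ligand of the NKG2A receptor of natural killer cells, had 69.6 FPKM with DMSO and 156 with DAC in siLuc cells, and 43.0 and 86.7 in siStau1 cells. It was highest in siLuc DAC and lowest in siStau1 DMSO, and siStau1 DAC lay between the siLuc groups. DAC raised it 2.24-fold in siLuc (log2 ratio 1.17, q = 0.00732 in the authors' deposited table) and 2.01-fold in siStau1 (1.01, q = 0.0194). Relative to genes of like GC content the log2 ratios were 0.61 and 0.57. With knockdown the log2 ratio was −0.69 in DMSO and −0.85 in DAC, not called in the authors' deposited table (q = 0.175 and 0.0986). These were −0.43 and −0.52 after centring.

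HLA-B (ENSG00000234745.10, chromosome 6, 31269491 to 31357188, minus strand), a classical class I chain, had 422 FPKM with DMSO and 1113 with DAC in siLuc cells, and 183 and 542 in siStau1 cells. Those are log2 ratios of 1.40 and 1.57 for DAC and of −1.21 and −1.04 for knockdown, none of them called. Relative to genes of like GC content the values were 0.61 and 0.94 for DAC and −0.93 and −0.57 for knockdown. The unadjusted p in the authors' deposited table was 0.0734 for DAC in siLuc and 0.0485 in siStau1, higher than for HLA-E although the ratios are larger.

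HLA-C (ENSG00000204525.16, chromosome 6, 31268749 to 31272130, minus strand), the classical chain that also serves as a ligand of killer-cell receptors, had 232, 486, 107 and 254 FPKM in the same order of groups. Its log2 ratio with DAC was 1.07 in siLuc (q = 0.172 in the authors' deposited table) and 1.24 in siStau1 (q = 0.0815). HLA-C has the highest GC content of the 9 genes, 62.7%, and relative to genes of like GC content its value in siLuc was −0.01, so its sign there depends on that choice. In siStau1 the centred value was 0.48. With knockdown the log2 ratio was −1.11 in DMSO and −0.94 in DAC, and after centring −0.87 and −0.35.

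HLA-F (ENSG00000204642.13, chromosome 6, 29722775 to 29738528, plus strand), a non-classical chain with restricted surface expression, had the lowest level of the 4 heavy chains in every group, at 21.6, 49.3, 10.8 and 30.5 FPKM. The DAC log2 ratios were 1.19 and 1.48 and the knockdown log2 ratios −0.98 and −0.69, none called. After GC centring these were 0.43, 0.92, −0.71 and −0.24, with the first and the last moved the most in proportion. The 4 heavy chains thus kept 1 order, HLA-B, HLA-C, HLA-E and HLA-F, in all 4 groups, and each was highest in siLuc DAC and lowest in siStau1 DMSO.

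B2M (ENSG00000166710.18, chromosome 15, 44711487 to 44718877, plus strand), the light chain that every class I molecule needs to reach the surface, had 1442 FPKM with DMSO and 599 with DAC in siLuc cells, and 799.6 and 675 in siStau1 cells. The siLuc DMSO group stood above the other 3, which lay close together. DAC lowered B2M 2.40-fold in siLuc (log2 ratio −1.27, q = 0.0214 in the authors' deposited table). In siStau1 the log2 ratio was −0.24 (q = 0.816), and with knockdown it was −0.85 in DMSO (q = 0.204) and 0.17 in DAC (q = 0.877). Its longest transcript has 40.6% GC, the lowest of the 9 genes.

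With DAC in siLuc, the log2 ratios in the GC bin of B2M had a median of −0.65 and an interquartile range of −1.17 to −0.14. B2M was below that range, at −0.62 after centring. In siStau1 the centred value was 0.28, the opposite sign of the uncentred one. With knockdown in DMSO the bin's median was 0.28 while B2M stood at −0.85, which put its centred value at −1.13. With knockdown in DAC the centred value was −0.18, again opposite in sign to the uncentred 0.17.

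With DAC in siLuc the light chain and the heavy chains differed in direction, while with knockdown in DMSO all 5 genes had lower values. Summed, the 4 heavy chains gave 746 FPKM with DMSO and 1805 with DAC in siLuc cells, and 344 and 913 in siStau1 cells. The ratio of B2M to that sum was 1.93, 0.332, 2.32 and 0.739, so B2M exceeded the 4 chains in both DMSO groups and lay below them in both DAC groups. The ratio was not tested, and the chains differ in GC content from B2M as given above.

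**Figure D2:**
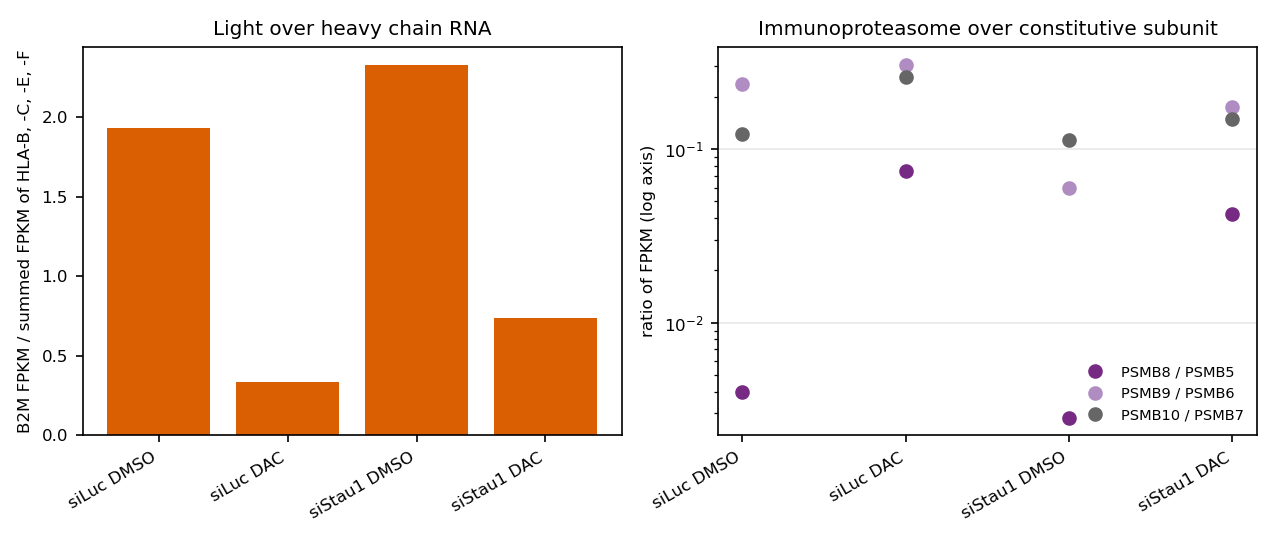
Ratios of FPKM within each of the 4 groups, 1 value per group with no error available: on the left, bars of B2M over the sum of HLA-B, HLA-C, HLA-E and HLA-F (linear axis from 0), and on the right, each immunoproteasome subunit over the constitutive subunit it replaces (points, log axis). The B2M ratio goes from 1.93 to 0.332 with DAC in siLuc, and PSMB8 over PSMB5 goes from 0.00396 to 0.0747.

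TAP1 was the one gene of the 9 called in 3 comparisons, and TAP2 was called in none. TAP1 (ENSG00000168394.11, chromosome 6, 32845209 to 32853978, minus strand) had 39.5 FPKM with DMSO and 126 with DAC in siLuc cells, and 15.7 and 66.7 in siStau1 cells. Both DAC groups stood above both DMSO groups. DAC raised it 3.19-fold in siLuc and 4.23-fold in siStau1, with log2 ratios of 1.67 and 2.08 and q = 0.00162 for each in the authors' deposited table, the smallest q-value the table holds. Knockdown in DMSO lowered it 2.51-fold (log2 ratio −1.33, q = 0.0201). In DAC the knockdown log2 ratio was −0.92 (q = 0.0905 in the authors' deposited table). After centring on genes of like GC content the 4 values were 0.91, 1.52, −1.05 and −0.47.

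TAP2 (ENSG00000204267.13, chromosome 6, 32821833 to 32838780, minus strand), the partner of TAP1 in the transporter, had 47.6, 73.9, 14.5 and 42.6 FPKM. The siStau1 DMSO group was the low one, while siStau1 DAC came close to siLuc DMSO. Its log2 ratio with DAC was 0.63 in siLuc and 1.55 in siStau1, and with knockdown −1.71 in DMSO and −0.79 in DAC. None of these 4 was called in the authors' deposited table, where the q-values ran from 0.163 to 0.590. After GC centring they were 0.63, 1.49, −1.62 and −0.71. TAP1 over TAP2 was 0.829 in siLuc DMSO and 1.08 in siStau1 DMSO, and 1.71 and 1.56 in the DAC groups.

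PSMB8 (ENSG00000204264.9, chromosome 6, 32840717 to 32844703, minus strand), the immunoproteasome subunit with chymotrypsin-like activity, was low without DAC. It had 0.823 FPKM with DMSO and 27.4 with DAC in siLuc cells, and 0.519 and 11.8 in siStau1 cells. The rise with DAC in siLuc had a log2 ratio of 4.90, or 29.8-fold (q = 0.0404 in the authors' deposited table), the largest of the 9 genes. Its size depends on the low DMSO value: with 1 FPKM added in place of 0.1 the log2 ratio was 3.96. In siStau1 the log2 ratio was 4.27 and was not called (q = 0.0862). Genes of its GC bin had a median of 0.43 in siLuc and 0.37 in siStau1, so centring left 4.46 and 3.90. With knockdown the log2 ratio was −0.58 in DMSO and −1.21 in DAC (−0.34 and −0.88 after centring), neither called.

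PSMB9 (ENSG00000240065.7, chromosome 6, 32844136 to 32859585, plus strand), the subunit that takes the place of PSMB6, was already expressed without DAC, at 45.0 FPKM in siLuc DMSO and 92.3 in siLuc DAC. In siStau1 cells it had 8.54 FPKM with DMSO and 36.2 with DAC. The siStau1 DMSO group stood apart below the other 3. The log2 ratio with knockdown in DMSO was −2.38, the lowest of the 9 genes, with q = 0.0679 in the authors' deposited table, and −2.33 after GC centring. With DAC the log2 ratio was 1.03 in siLuc and 2.07 in siStau1, not called (q = 0.523 and 0.210 in the authors' deposited table). After GC centring these were 1.02 and 2.14, and the knockdown log2 ratio in DAC, −1.35, was −1.36. The longest transcript of PSMB9 has 46.9% GC but its coding transcripts have a median of 56.1%. Centred on the latter, an alternative chosen after seeing the data, the values of PSMB9 were 0.42 and 1.57 for DAC in siLuc and siStau1, and −2.11 and −1.02 for knockdown in DMSO and DAC.

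PSMB8 and PSMB9 are read against the subunits they replace, which were not called in any comparison. PSMB5 ran from 183 to 367 FPKM over the groups, PSMB6 from 142 to 300.5 and PSMB7 from 218 to 321. PSMB8 over PSMB5 was 0.00396 with DMSO and 0.0747 with DAC in siLuc cells, and 0.00283 and 0.0421 in siStau1 cells. PSMB9 over PSMB6 was 0.237, 0.307, 0.0600 and 0.175. PSMB10, the third immunoproteasome subunit, had 34.6, 83.7, 24.6 and 40.6 FPKM and was not called; over PSMB7, which it replaces, it was 0.123, 0.261, 0.112 and 0.149. All 3 ratios were highest in siLuc DAC and lowest in siStau1 DMSO, and PSMB8 over PSMB5 stayed at or below 0.0747 in every group.

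**Figure D3:**
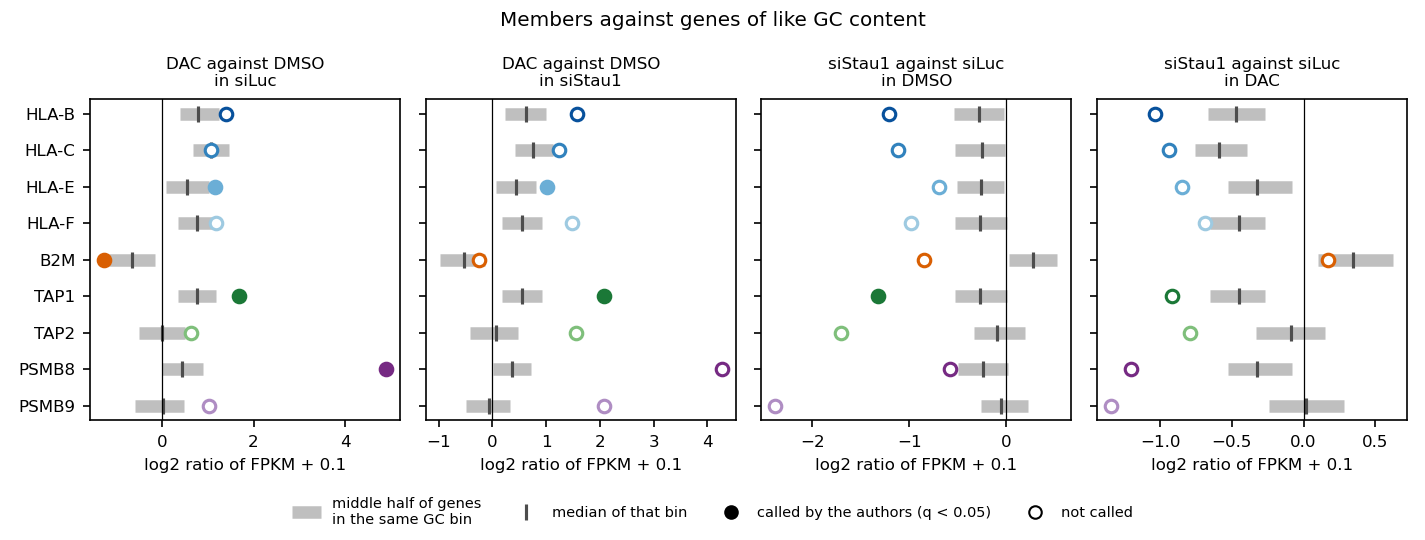
Log2 ratio of FPKM + 0.1 for each of the 9 genes in the 4 comparisons that change 1 factor (points, filled where called by the authors), with the median and interquartile range (tick and grey bar) of protein-coding genes in the same GC bin. With knockdown in DMSO all 9 genes lie below the range of their bins, and with DAC in siStau1 all but B2M lie above it.

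Most of the 9 genes lay outside the interquartile range of genes of like GC content. Lying beyond a quartile is common in any bin by definition. With no error on the ratios, it does not show that a gene differs from its bin. The members' longest transcripts range from 40.6% GC in B2M to 62.7% in HLA-C. With DAC in siLuc, 7 of 9 lay above the third quartile of the protein-coding genes in their own GC bin and B2M below the first, and in siStau1 8 of 9 lay above the third quartile. With knockdown, all 9 lay below the first quartile in DMSO and 8 in DAC. Medians of the 9 centred values were 0.61 and 0.94 for DAC in siLuc and siStau1, and −0.93 and −0.52 for knockdown in DMSO and DAC. No source used here states a correction for GC content.

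**Figure D4:**
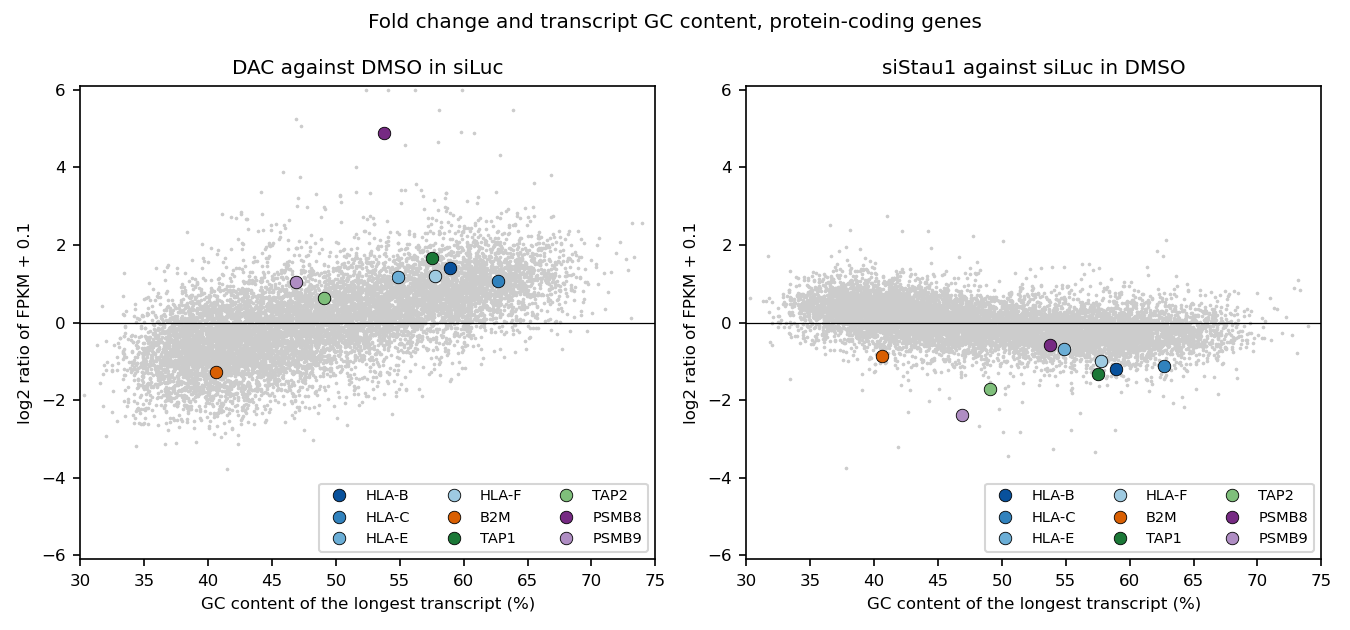
Log2 ratio of FPKM + 0.1 against the GC content (%) of the longest transcript for protein-coding genes at or above 1 FPKM in both groups (grey; values beyond 6 are drawn at 6), with the 9 genes in colour. In siLuc, DAC places B2M (40.6% GC) at −1.27 and HLA-C (62.7% GC) at 1.07, and with knockdown in DMSO every coloured point is below 0, from −0.58 for PSMB8 to −2.38 for PSMB9.

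The response to DAC in siStau1 cells minus that in siLuc cells, as a difference of log2 ratios, had a median of 0.29 over the 9 genes, beside −0.02 over the 15956 genes tested in both arms. It was positive for 7 of the 9 genes, beside 7816 of the 15956. Those 7 ran from 0.17 for HLA-B to 1.04 for PSMB9, with 1.02 for B2M and 0.92 for TAP2. It was −0.16 for HLA-E and −0.63 for PSMB8. The siStau1 DMSO group enters this difference and also the knockdown comparison in DMSO, where PSMB9 and TAP2 had the lowest log2 ratios of the 9. No test of the difference can be made without values per library.

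Other genes of the class I pathway were given as a list of 17, all tested. TAPBP rose with DAC in both arms and TAPBPL in siStau1. Of all genes tested, 8.71% were called higher with DAC in siLuc and 4.56% in siStau1. None of the 17 was called lower with DAC in either arm, against 4.78% and 2.89% of genes tested. TAPBP (tapasin, which tethers heavy chains to the transporter) had 9.93, 32.4, 7.24 and 18.0 FPKM, log2 ratios of 1.69 and 1.30. TAPBPL, a tapasin-like peptide editor, was low throughout, at 0.735, 3.80, 0.0427 and 0.989 FPKM. It was the 1 gene of the list called lower with knockdown in DMSO (q = 0.0404 in the authors' deposited table), against 0.466% of genes tested. The list medians were 0.72 and 0.36 for DAC and −0.27 and −0.41 for knockdown, smaller in size than those of the 9 genes. After GC centring the list medians were 0.50 and 0.51 for DAC and −0.23 and −0.33 for knockdown. Those of the 9 genes were then 0.61, 0.94, −0.93 and −0.52, so with DAC in siLuc the 2 medians lay close together. With knockdown in DAC the authors' Cuffdiff test called none of the 17, against 0.904% of genes tested, and 5 had an unadjusted p under 0.05, against 6.95%.

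Of 16 transcription factors that act on class I genes, STAT2 and RELA rose with DAC in siLuc and NFYB fell. These are 2 of 16 higher, against 8.71% of genes tested, and 1 of 16 lower, against 4.78%. STAT2, which acts with IRF9 on response elements of type I interferon, had 22.6, 52.8, 13.3 and 32.2 FPKM. It rose with DAC in siStau1 as well, the 1 factor of the 16 called there, against 7.46% of genes tested. RELA, an NF-kB subunit, had 9.85, 28.3, 7.53 and 15.4 FPKM. NFYB, part of the factor that binds Y boxes, had 22.4, 6.995, 48.5 and 16.9 FPKM. Its longest transcript has 36.0% GC. Across protein-coding genes the Spearman correlation of log2 ratio and GC content was 0.66 with DAC in siLuc and −0.49 with knockdown in DMSO. The values of the factors given here are not centred on GC content. NLRC5, the class I transactivator, had 8.93, 14.8, 4.12 and 7.76 FPKM, highest in siLuc DAC and lowest in siStau1 DMSO. Its differences in the 4 comparisons of 1 factor were not called (q from 0.359 to 0.590 in the authors' deposited table). Knockdown changed none of the 16 by the authors' Cuffdiff calls, against 0.799% of genes tested in DMSO and 0.904% in DAC. By the unadjusted p of that test, 2 were under 0.05 in DMSO, against 4.30%, and 4 in DAC, against 6.95%. The list medians were 0.12 and 0.17 for DAC and −0.12 and −0.22 for knockdown.

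Of the 14 genes of the constitutive proteasome core, 4 fell with DAC in siLuc, against 4.78% of genes tested. None was called higher, against 8.71%. PSMA2 had 252, 84.6, 218 and 133 FPKM, PSMA3 206, 52.0, 307 and 108, PSMA4 368, 82.5, 339 and 168, and PSMA7 415, 126, 248 and 199.6. PSMA4 also fell with DAC in siStau1, the 1 core gene called there, against 7.46% of genes tested. It was the 1 core gene called with knockdown in DAC, against 0.904%, and was higher there (log2 ratio 1.03, q = 0.0348 in the authors' deposited table). These are structural alpha-ring subunits shared by both forms of the proteasome. The median of the 14 was −0.56 in siLuc, −0.15 in siStau1, and −0.19 and 0.29 with knockdown in DMSO and DAC. Centring on GC moved the DAC medians to 0.01 and 0.18 and the knockdown median in DAC to −0.11, so the direction of the list depends on that choice, while the centred values of PSMA2, PSMA3, PSMA4 and PSMA7 in siLuc remained negative, at −0.92, −1.04, −1.66 and −2.27.

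Class II genes, which present peptides to CD4+ T cells, were low, at most 8.31 FPKM in any group (HLA-DMA with DAC in siLuc). HLA-DPB1 had 0.552, 5.15, 1.18 and 3.35 FPKM. It was the 1 gene of 9 tested that was called with DAC in siLuc, against 13.5% of all genes tested. In siStau1 the authors' Cuffdiff test called none of 9, against 7.46%, and 2 had an unadjusted p under 0.05, against 19.0%. Of the class I-like ligands, 11 were tested and 2 rose with DAC in each arm: RAET1L and FCGRT in siLuc, and RAET1L and ULBP2 in siStau1. Over all genes tested, 8.71% were called higher in siLuc and 4.56% in siStau1. RAET1L and ULBP2, ligands of the NKG2D receptor, had 2.55, 16.3, 1.20 and 10.95 FPKM, and 6.90, 10.6, 4.01 and 12.6 FPKM. FCGRT, the neonatal Fc receptor chain that pairs with B2M, had 0.660, 7.05, 0.389 and 4.33 FPKM. Knockdown changed no gene of either list in DMSO or DAC by the authors' Cuffdiff calls, and none had an unadjusted p under 0.05. Over all genes tested, 0.799% were called in DMSO and 0.904% in DAC, and 4.30% and 6.95% had such a p. List medians were 0.92 and 0.59 with DAC and 0.44 and 0.07 with knockdown for class II, and 0.61, 0.19, −0.41 and −0.37 for the ligands. After GC centring they were 0.63, 0.37, 0.51 and 0.09 for class II, and 0.59, 0.28, −0.39 and −0.10 for the ligands. With DAC in siLuc both centred medians lay near that of the 9 class I genes, 0.61.

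**Figure D5:**
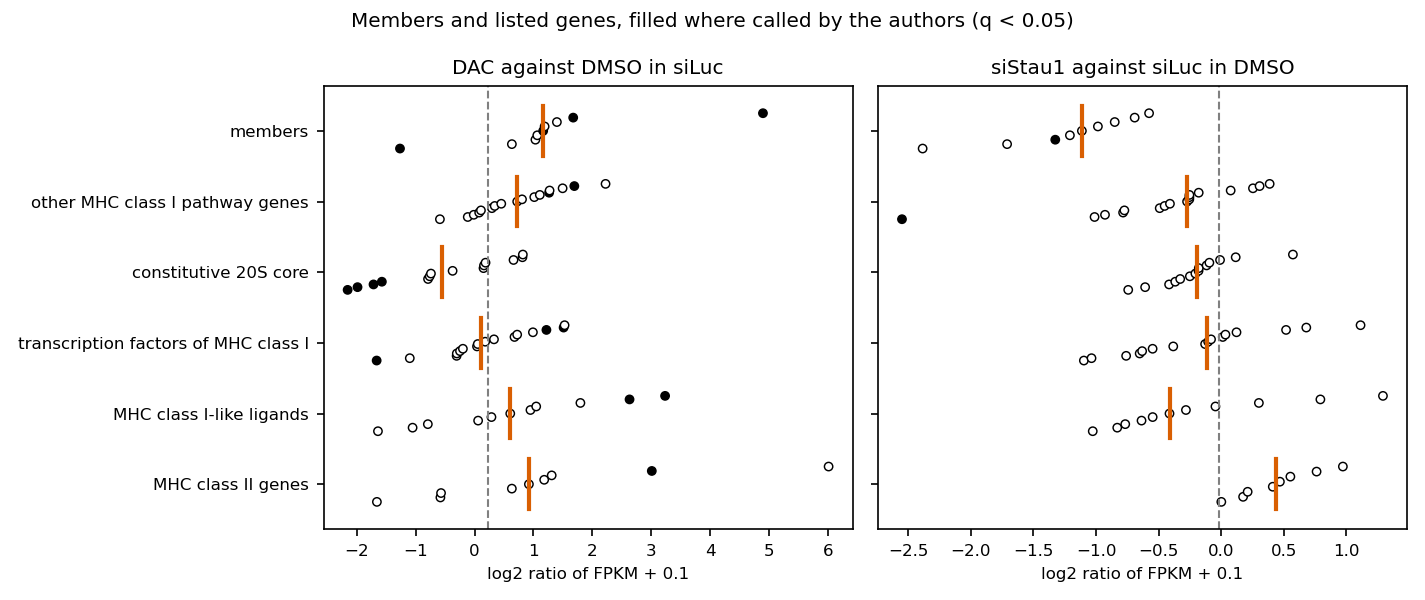
Log2 ratio of FPKM + 0.1 for each tested gene of the 9 members and of 5 related lists, with DAC in siLuc (left) and with knockdown in DMSO (right); points are genes, filled where called by the authors, orange bars are list medians and the dashed line is the median of all genes tested. The members' median is 1.17 on the left and −1.11 on the right, and that of the constitutive proteasome core is −0.56, which turns to 0.01 when centred on GC content, and −0.19. Centred in the same way, the left medians are 0.61 for the members, 0.50 for the other class I genes, 0.59 for the ligands and 0.63 for class II.

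Several of these genes overlap or resemble each other, and how shared reads were assigned is not given in the sources used here. The gene model of HLA-B spans 2640 bases of HLA-C on the same strand, but the 2 share only 35 exon bases. The deposited table places both in 1 locus. Their values are uncertain, as are those of HLA-E and HLA-F, which are similar in sequence. The pseudogene HLA-H had 3.33, 10.99, 2.66 and 4.37 FPKM and was called higher with DAC in siLuc (q = 0.0439 in the authors' deposited table). HCP5, a non-coding RNA gene of the class I region, had 12.9, 16.3, 6.27 and 9.48 FPKM and was not called in the comparisons of 1 factor. TAP1, PSMB8 and PSMB9 also share 1 locus. PSMB9 lies on the opposite strand, and its model spans the whole of TAP1 with no exon bases in common, and 139 exon bases of PSMB8. PSMB8-AS1, which is antisense to 618 exon bases of PSMB8, stayed between 0.511 and 0.712 FPKM, and the antisense HLA-F-AS1 between 0.974 and 2.35. AL669918.1 shares 2064 exon bases with TAP2 on the same strand and stayed between 0.678 and 2.12 FPKM. The kits keep the strand per the labels, but whether counting used it is not stated, so antisense reads cannot be told apart from those of the gene.

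The 5 genes nearest to the median profile of the 9 members over the 4 groups, among 11924 searched, were ARPC4-TTLL3, SH2D5, ANO7L1, RNU12 and KLF2, at Euclidean distances of 0.172 to 0.199 on centred log2 values. KLF2, for example, had 2.32, 5.19, 1.05 and 2.88 FPKM. Of the members, HLA-B lay at 0.23 from that median, B2M at 2.24 and PSMB8 at 3.28, so the shared profile does not describe the last 2.

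The cell type labels were checked with marker genes. Of 7 markers of colorectal epithelium, 6 had at least 1 FPKM in every group, led by KRT8 or KRT18, and their summed level ranged from 2149 to 8198 FPKM, higher in both DAC groups. KRT8, KRT18 and KRT19 carried that sum, while EPCAM had 259, 117, 338 and 179 FPKM, lower in both DAC groups. CDX2 had 7.31, 7.11, 2.76 and 7.47 FPKM, and CDH1 14.3, 26.5, 16.2 and 25.9 FPKM. The marker under 1 FPKM was VIL1, below 0.2 FPKM. The 9 leukocyte markers summed to 1.82 FPKM with DMSO and 26.2 with DAC in siLuc cells, and 0.934 and 13.9 in siStau1 cells, with CD68 the highest in each. NKG7 was listed at 0 in all groups and PTPRC, which all leukocytes express, was at 0 in both DMSO groups and at most 0.82 FPKM with DAC. CD3D was listed at 0 without DAC and had 6.47 and 4.11 FPKM with DAC. The 6 fibroblast and endothelial markers summed to 1.77, 10.9, 0.987 and 7.18 FPKM. Both sums were higher with DAC, as 8 of the 9 class I genes were, and their part in the result was not tested.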

How the data were processed

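The 11 libraries were 8 of total RNA, used here, and 3 of RNA bound by the J2 antibody. The J2 tables list repeat elements with no positions or gene names and were not used. For total RNA the authors deposited FPKM values, 1 per gene and group, in the layout of Cuffdiff per the file headers, with p-values and q-values for 6 pairwise comparisons, of which 5 were used. The submitters' processing notes name bcl2fastq 2.20, HISAT2 2.1.0, featureCounts, DESeq 1.36.0, Cuffdiff 2.2.1, Cuffnorm 2.2.1 and build hg38, with no role or order. The strand setting, the treatment of reads that fit several genes and the depth per library are not given in the sources used here.

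The deposited q-value was recomputed as the Benjamini-Hochberg value over all 102180 tests, with a largest gap of 5.3e-07. Because the table has no values per library, no count test could be run: calls are the authors' at q under 0.05, and log2 ratios use a pseudocount of 0.1 FPKM, which understates changes of low genes. All 58699 gene identifiers matched GENCODE release 29 (GRCh38), the source of positions, overlaps and the GC content of the longest transcript. Centred values subtract the median of protein-coding genes at or above 1 FPKM in both groups, in 20 bins of equal gene number by GC content. The code was tested on simulated data. Work was done in Python 3.11.15 with pandas 2.3.3, numpy 2.4.6 and scipy 1.17.1.

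The 9 members, the 5 lists and the motifs were chosen with earlier results of these data known. The naming rule takes all members, then each listed gene the authors called in any of 4 comparisons of 1 factor (up to 8 per list by size, apart from any not reported here), plus NLRC5, TAPBP, PSMB10, PSMB5, PSMB6 and PSMB7. HLA-H and the antisense genes were listed as neighbours; AL669918.1 was named from the overlap search, after its values were seen.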

Additional observations from a re-analysis of the deposited data

How the results depend on the processing

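The deposited table has 1 value per gene and group. No paired analysis was possible because no column carries a replicate, and the planned fits without single replicates, with a replicate block or with counts were not run. Of 270 recomputed values for single members, 8 reversed, all under GC centring and in 4 of 45 results: HLA-C with DAC in siLuc (−0.0059, and −0.037 with the GC content of coding transcripts, an alternative chosen after seeing the data), HLA-C in siStau1 DAC against siLuc DMSO (−0.37 and −0.41), B2M with DAC in siStau1 (0.28 and 0.38) and B2M with knockdown in DAC (−0.18 and −0.35). The median of the 20S core reversed to 0.014 and 0.18 with DAC in siLuc and siStau1, and to −0.11 with knockdown in DAC. The cause was not tested.

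Medians of the 9 genes kept their sign under every alternative run. In the order DAC in siLuc, DAC in siStau1, knockdown in DMSO, knockdown in DAC, and siStau1 DAC against siLuc DMSO, they were 0.61, 0.94, −0.93, −0.52 and 0.045 with GC bins, and 0.57, 0.98, −0.93, −0.55 and 0.0025 with coding transcripts. Centred on the median gene they were 1.09, 1.53, −1.10, −0.81 and 0.33, scaled to the same coding sum 1.15, 1.60, −1.03, −0.78 and 0.45. With a pseudocount of 1 FPKM they moved to 1.16, 1.49, −0.91 (knockdown in DAC) and 0.31, and with 0.01 FPKM to 1.56 with DAC in siStau1. With genes of at least 1 FPKM in both groups they were 1.12, 1.52, −1.16 and, in the last comparison, 0.22. The median difference of the DAC response was 0.25 and 0.30 with these pseudocounts, 0.35 centred on the median gene, 0.50 and 0.47 with GC bins and 0.35 with the FPKM minimum. At q under 0.01 the members called numbered 2 with DAC in siLuc, 1 in siStau1 and 0 with knockdown in DMSO. At q under 0.10 there were 4 with DAC in siStau1, 2 with knockdown in each of DMSO and DAC, and 1 in siStau1 DAC against siLuc DMSO. With q-values adjusted within a comparison the TAP1 call with knockdown in DMSO was lost, leaving 0. The depth behind these values is unknown.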
